A study of Arabidopsis thaliana with 30 samples.

Results

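The genes described here encode the subunits of ribonucleotide reductase in Arabidopsis thaliana. They were chosen by name, as the large subunit gene RNR1 (AT2G21790) and the small subunit genes TSO2 (AT3G27060) and RNR2A (AT3G23580), and they are 3 of the 20404 genes in the deposited expression tables. All 3 passed the filter on low values. In the TAIR10.1 annotation RNR1 lies on chromosome 2 from 9293261 to 9297861 on the plus strand, with 17 exons. TSO2 lies on chromosome 3 from 9979841 to 9981620 on the minus strand, with 2 exons. RNR2A lies on the same chromosome from 8459838 to 8462815 on the plus strand, with 9 exons. For a further locus of the small subunit family, RNR2B, only its sequence was used, and its expression was not analysed here. All 1000 bases of its transcript stood in for a coding sequence, and whether it encodes a working subunit was not examined.

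Ribonucleotide reductase reduces ribonucleotides to deoxyribonucleotides and is the step that limits the supply of dNTPs for DNA replication and repair. The large subunit carries the catalytic site and the sites through which nucleotides control the enzyme, and the small subunit holds the radical that starts each round of catalysis. The enzyme needs both kinds of subunit. Its genes are known in plants as genes of S phase and of the response to DNA damage, and plants that lack TSO2 develop abnormally and are sensitive to damage.

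RNA was sequenced from seedlings 7 days old in 10 groups, which were 5 genotypes in the Columbia background, each kept as a mock control or treated with methyl methanesulfonate (MMS), an agent that methylates DNA bases and so disturbs replication. Each group had 3 libraries, 30 in all. Wild type is called Col. X stands for the line labelled h2a.x-1, named for H2A.X, the histone variant that is phosphorylated at DNA breaks, and W for h2a.w-2, named for H2A.W, a plant variant of heterochromatin. XW stands for h2a.x/w-2, whose label joins both names, and tsk for a mutant of TONSOKU (TSK), a factor in the repair of broken replication forks. The series asks how TONSOKU is recruited by these H2A variants. How much MMS was given and for how long is not in the labels, and neither is the nature of the alleles. They also do not say whether the 3 libraries of a group came from separate plantings. P-values therefore measure the spread between these libraries, which may be technical.

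The libraries held 15343687 to 25115027 reads over the listed genes. TSK stood at 155 ± 7.13 normalized counts (SD, n = 3) in Col mock and 53.2 ± 7.15 in tsk mock. The H2A.X gene HTA5 stood at 1040 ± 10.4 in Col mock, 191 ± 19 in X mock and 916 ± 37.2 in libraries labelled XW without MMS, while the other H2A.X gene, HTA3, was not called in X. In W mock the H2A.W gene HTA6 was lower, at 798 ± 35.9 against 1144 ± 38.5 in Col, HTA12 was higher, HTA7 was not called, and HTA3 stood at 1189 ± 27.9 against 594 ± 38.2. Under MMS HTA6 was not called in W. The labels X and W are therefore checked through 1 gene each, W less clearly. No gene among the 5 that encode H2A.X or H2A.W was called lower than Col in XW, so their transcripts do not check that label, and every direction given for XW rests on it. Of 6 genes, these and TSK, 5 were called higher than Col in XW under MMS, beside 25.3% of all genes called. HTA6 stood at 922 ± 75.1 in XW under MMS against 353 ± 20.4 in Col under MMS. HTA5 stood at 1592 ± 58.1 in W mock. XW mock replicate 1 stood apart from its group. A chi-square of its reads against replicates 2 and 3 gave 17.5 and 19 per degree of freedom, against 2.51 between those replicates. The tissue is labelled leaves while the protocol harvested seedlings. All 8 leaf markers and 10 of 11 root markers were in the tables, at summed levels of 9202 to 23656 FPKM (fragments scaled to a gene length and library total) and 672 to 1895 FPKM. Such sums weigh genes by the lengths behind the FPKM, which for RNR1 and TSO2 do not match the annotation. Of 6 shoot meristem markers 4 were in the tables, at 46.6 to 94.4 FPKM, and the defining markers CLV3 and WUS were not among them. In such bulk samples fewer cells of a type and less RNA per cell cannot be told apart.

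The sequences near the gene starts are shown because SOG1 is known as the regulator of damage-induced genes in plants and E2F factors as regulators of S phase genes. The letters searched were CTTNNNNNNNAAG, a form bound by SOG1, and 4 forms of the E2F site (TTTCCCGC, TTTGGCGC, TTTGCCGC and TTTCGCGC). Both strands were searched from 500 bases before to 500 bases after the start of each gene in TAIR10.1. Each is printed 5′ to 3′ on the strand of its gene, with the matched letters in capitals.
RNR1, chr2:9293252-9293281, plus strand: ctcCTTCTCCTAGAAGctgGCGGGAAAatc
TSO2, chr3:9981512-9981541, minus strand: ctaaaacacatTTTGGCGCgtgtaacatcg
TSO2, chr3:9981279-9981307, minus strand: cccttcatCTTCCTCAACAAGcttttttc
In RNR1 the first capitals match CTTNNNNNNNAAG and span the gene start, from base -6 to base 7. The second capitals are TTTCCCGC read on the other strand. In TSO2 the E2F form began at base 91 and the SOG1 form at base 322. These matches do not overlap each other. All but the first bases of the one at the RNR1 start lie after the gene start and upstream of start codons at base 269 in RNR1 and base 564 in TSO2. Bases were counted along the genome, and whether a match lies in an exon or an intron was not checked. RNR2A held no match to any of the 5 forms in its window. Over 27443 windows of protein-coding genes, 35.7% held CTTNNNNNNNAAG, 5.42% held any E2F form and 1.80% held both. A match describes letters only, and nothing about binding follows from it. The width of the window was chosen after narrower windows had been searched.

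Among mock seedlings TSO2 varied most between genotypes, RNR1 varied less, and RNR2A moved little. In Col mock the deposited FPKM were 49.7 ± 1.60 for RNR1, 28.3 ± 1.96 for TSO2 and 17.2 ± 0.392 for RNR2A. The lengths behind these FPKM do not match the annotation. In Col mock replicate 1, 2205 reads of RNR1 gave 51.5 FPKM and 2096 reads of TSO2 gave 30.5 FPKM. The annotated transcripts have 3000 and 1692 bases, so per annotated base TSO2 held more reads. The FPKM therefore do not rank these genes by abundance. Of the 3 genes, TSO2 and RNR1 rose in W, XW and tsk, and RNR2A fell in tsk. None of the 3 was called in X, where 7.48% of 20256 tested genes were called in either direction. In W 2 of 3 were called, in XW 2 and in tsk all 3, beside 13.1%, 25.3% and 26% of all tested genes. Called means an adjusted p under 0.05 in limma (Benjamini-Hochberg over all tested genes). Fold changes are on the scale of log2(normalized count + 1).

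TSO2 stood at 1535, 1398 and 1351 normalized counts in the Col mock libraries, at 1639, 1494 and 1718 in X, and at 1986, 1921 and 2017 in W. It stood at 3606, 3573 and 4005 in XW and at 4210.4, 3814 and 4073 in tsk. The ranges of XW and tsk overlapped and lay above every other mock library, W lay above X and Col, and X and Col overlapped. Against Col, TSO2 rose in W to 1.38-fold (log2 fold change 0.47, SE 0.07, limma adjusted p = 1.6e-05). The larger rises reached 2.61-fold in XW and 2.82-fold in tsk, with 95% intervals of the log2 change from 1.25 to 1.52 and from 1.36 to 1.64. Without XW mock replicate 1 the log2 change in XW was 1.41. In X the difference was 0.18 (95% interval 0.04 to 0.32, limma adjusted p = 0.11).

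RNR1 was at 1615, 1518 and 1543 normalized counts in Col mock, at 1677, 1518 and 1788 in X and at 2070.0, 1759 and 2076 in W. XW libraries held 1786, 1829 and 2015, and tsk libraries held 2057, 2041 and 2026. All libraries of W, XW and tsk lay above all of Col, while those of X overlapped with Col, and the neighbours in the order tsk, W, XW, X, Col all overlapped. RNR1 rose to 1.26-fold in W, 1.2-fold in XW (limma adjusted p = 0.0023) and 1.31-fold in tsk (limma adjusted p = 3.2e-05). The 95% interval in tsk, 0.26 to 0.52 in log2, lay wholly below that of TSO2.

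RNR2A had 785, 757 and 756 normalized counts in Col mock, 641, 630.1 and 692 in X, and 809.8, 802 and 894 in W. It had 783, 746 and 682 in XW and 595, 669 and 669 in tsk. W lay above Col, and X and tsk lay below Col without overlap, while XW overlapped with Col. In tsk it fell by 16.0% (log2 change -0.25, SE 0.07, limma adjusted p = 0.011). That call was lost without tsk mock replicate 1 (-0.19, limma adjusted p = 0.081) and with FPKM values (-0.16, limma adjusted p = 0.092). In X the difference was -0.23, with a limma adjusted p of 0.05002 that lies just above the threshold. In W it was 0.12 (limma adjusted p = 0.29) and in XW -0.06 (limma adjusted p = 0.61).

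**Figure D1:**
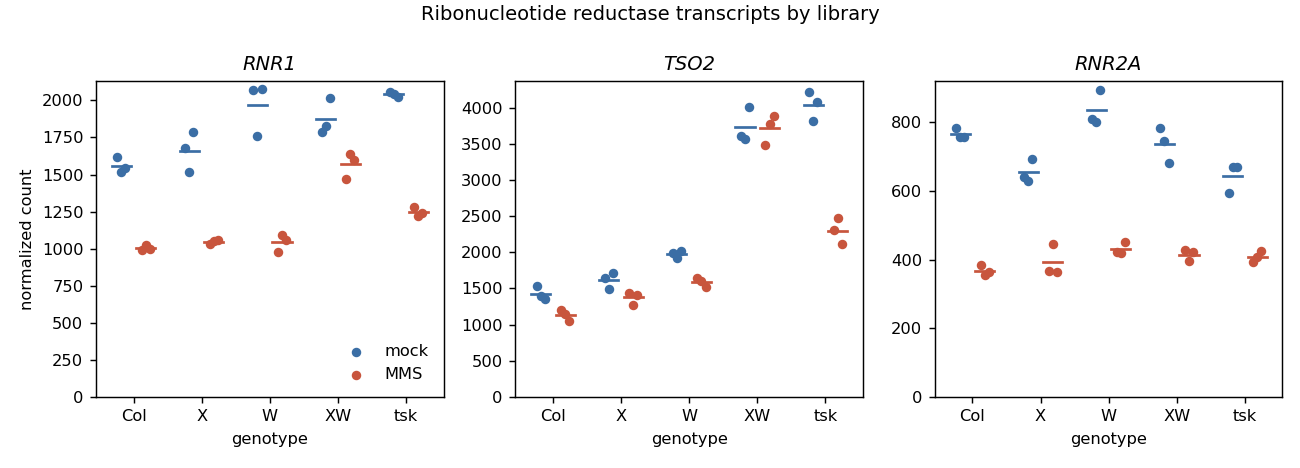
Normalized counts (vertical axes, from 0) of RNR1, TSO2 and RNR2A in each library by genotype (horizontal axes), mock in blue and MMS in red, with bars at the mean of 3 libraries. TSO2 in XW lies between 3481 and 4005 under both treatments, while RNR2A under MMS lies between 355 and 450.1 in every genotype.

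Whether XW departs from X and W together was tested directly, taking XW to hold the mutations of both lines. HTA5 stood at 191 in X mock and 916 in XW mock, and HTA3 at 1189 in W mock and 584 in XW mock. Whether XW holds the same alleles as X and W is therefore not known. For TSO2, XW exceeded X by 1.21 and W by 0.91 in log2 without MMS, with 14.3% and 21.9% of all genes called in these comparisons. Its level in XW lay above the sum of the log2 changes of X and W by 0.74 (SE 0.10, limma adjusted p = 1.1e-05), in a test that called 10.5% of all genes. RNR1 and RNR2A were not called in any of these 3 tests in mock, with non-additive parts of -0.16 (95% interval -0.34 to 0.03) and 0.05 (95% interval -0.16 to 0.26). RNR1 was called higher in XW than in X without XW mock replicate 1 (0.21) or X mock replicate 3 (0.23), and RNR2A was called lower in XW than in W without XW mock replicate 1 (-0.23). Between XW and tsk, where 29.7% of all genes were called, RNR2A was the 1 member called. It was higher in XW by 0.19 (limma adjusted p = 0.043), a call that was lost without XW mock replicate 1 (0.15), XW mock replicate 2 (0.18) or tsk mock replicate 1 (0.14), and with FPKM values (0.11). TSO2 differed between XW and tsk by -0.11 (95% interval -0.25 to 0.02) and RNR1 by -0.12 (95% interval -0.25 to 0.01). With FPKM values both were called lower in XW, at -0.18 and -0.19.

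Under MMS all 3 genes fell in Col, and RNR2A fell most. The MMS libraries of Col held 1196, 1147 and 1055 normalized counts of TSO2, 993, 1025 and 998 of RNR1, and 384, 355 and 365 of RNR2A. Every one of these lay below all Col mock libraries of its gene. TSO2 fell by 20.6% (log2 change -0.33, limma adjusted p = 7.6e-05) and RNR1 fell by 35.5% (-0.63). RNR2A fell by 51.9% (log2 change -1.06, SE 0.07, limma adjusted p = 1.9e-13). Such calls were common, since 71.1% of all tested genes were called between MMS and mock in Col. The shares were 73.1% in X, 72.9% in W, 71.7% in XW and 71.1% in tsk. Being called is thus near the background, and the sizes and directions carry the description.

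Of the 15 pairs of a gene and a genotype, 14 were called lower under MMS and the exception was TSO2 in XW. TSO2 held 3481, 3768 and 3887 normalized counts in XW under MMS, which overlapped with its mock range (log2 change -0.01, 95% interval -0.14 to 0.13, limma adjusted p = 0.94). The lower end of that interval lies above the change of -0.33 fitted in Col. In tsk TSO2 dropped to 2307, 2467 and 2119, clear of the mock range, and so fell by 43.1% (log2 change -0.81). In X it stood at 1441, 1277 and 1409 (log2 change -0.23) and in W at 1640.3, 1596 and 1521 (-0.32).

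RNR1 under MMS was at 1029, 1049 and 1059 normalized counts in X, at 979, 1092 and 1055 in W, at 1471, 1636 and 1595 in XW and at 1280.3, 1222 and 1239.8 in tsk. XW lay above tsk, and tsk lay above Col, X and W, among which X lay just above Col and W overlapped with both. It fell by 16.4% in XW and fell by 46.9% in W, with X (fell by 36.9%) and tsk (fell by 38.9%) between. RNR2A under MMS was at 366, 444 and 365 in X, at 423, 420.2 and 450.1 in W, at 428, 395 and 422 in XW and at 394, 406 and 425 in tsk. All 5 genotypes lay close together, below every mock library of the series. Among the mutants it fell by 36.5% in tsk and fell by 48.3% in W, with X and XW between.

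Whether the responses themselves differ was tested as an interaction with Col, which shares its libraries among these tests. Against Col, 2 of 3 genes were called in XW and 2 of 3 in tsk, beside 8.92% and 2.49% of all tested genes, and none of the 3 in X or W, beside 1.99% and 7.02%. In XW the response was less negative for TSO2 by 0.33 (SE 0.10, limma adjusted p = 0.029) and for RNR1 by 0.37 (SE 0.09, limma adjusted p = 0.0068). The call of TSO2 was lost without any one of 6 of the 12 libraries, namely Col mock replicate 1 (0.27), XW mock replicates 1 (0.30) and 2 (0.30), Col MMS replicate 3 (0.28), and XW MMS replicates 2 (0.32) and 3 (0.29). It was also lost with FPKM values (0.30, limma adjusted p = 0.052). In tsk the response was more negative for TSO2 by -0.48 (SE 0.10, limma adjusted p = 0.0045) and less negative for RNR2A by 0.40 (SE 0.10, limma adjusted p = 0.030). The call of RNR2A was lost without any one Col mock library (0.38, 0.41 and 0.41), Col MMS replicate 2 (0.38), tsk mock replicate 1 (0.34) or tsk MMS replicate 3 (0.37). In W the response of RNR1 was more negative by -0.28, with a limma adjusted p of 0.0505 just above the threshold, and it was called without W mock replicate 2 (-0.36) or W MMS replicate 2 (-0.32).

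XW and tsk, whose TSO2 levels overlapped in mock, separated under MMS. The response of XW minus that of tsk, a test added after the values were seen, was 0.81 for TSO2 (SE 0.10, limma adjusted p = 8.7e-07) and 0.45 for RNR1 (SE 0.09, limma adjusted p = 0.0010), with 9.47% of all genes called. Without XW mock replicate 1 these were 0.78 and 0.42. For RNR2A it was -0.17 (95% interval -0.38 to 0.04). Under MMS itself TSO2 in XW was 1.62-fold its level in tsk, and RNR1 was 1.26-fold, with 28.1% of all genes called and no overlap of libraries for either gene.

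**Figure D2:**
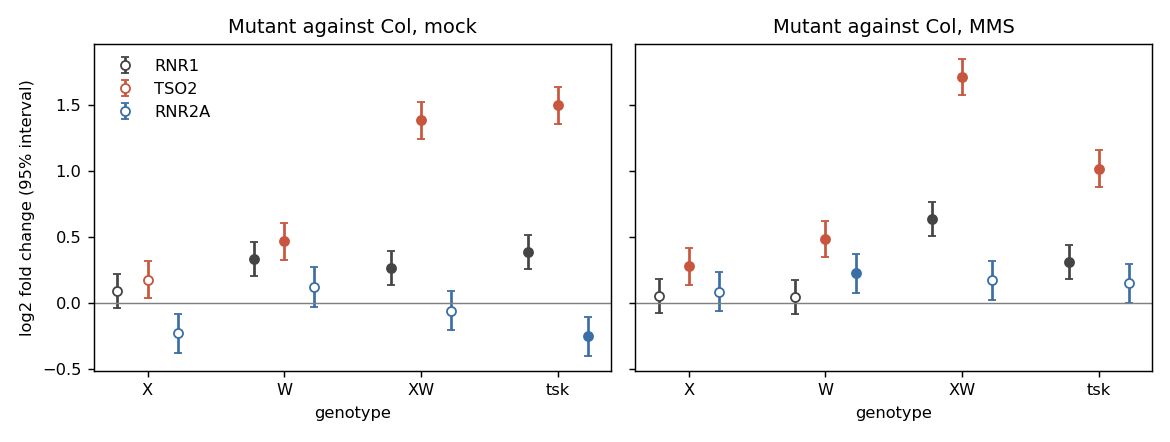
Log2 fold change of each mutant against Col (vertical axis) without MMS (left) and under MMS (right), with 95% intervals from limma. Filled points were called and open points were not. TSO2 in XW and tsk stands at 1.38 and 1.5 without MMS and at 1.71 and 1.02 under it.

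Levels under MMS were also set against Col under MMS. TSO2 was higher in all 4 mutants, by 0.28 in X, 0.49 in W, 1.71 in XW and 1.02 in tsk, which is 1.21-fold, 1.40-fold, 3.28-fold and 2.03-fold. The call in X (limma adjusted p = 0.0067) was lost without Col MMS replicate 3 (0.23, limma adjusted p = 0.060). RNR1 was higher in XW (1.56-fold, limma adjusted p = 1.1e-08) and tsk (1.24-fold) and was not called in X (0.06) or W (0.05). RNR2A was called in W alone of the 4 (0.23, limma adjusted p = 0.038), and this call was lost without any one of 5 of the 6 libraries compared, with values from 0.20 to 0.26 over all 6. It stood at 0.09 in X, 0.17 in XW and 0.15 in tsk. The counts of members called were thus 1 in X, 2 in W, 2 in XW and 2 in tsk, beside 11%, 11.7%, 25.3% and 30.3% of all tested genes.

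Under MMS the level in XW also exceeded those in the single mutants. TSO2 was higher in XW than in X by 1.43 and than in W by 1.23, and RNR1 by 0.58 and 0.59, in comparisons that called 15.6% and 12.1% of all genes. The non-additive part was 0.95 for TSO2 (SE 0.10, limma adjusted p = 1.6e-07) and 0.53 for RNR1 (SE 0.09, limma adjusted p = 0.00028), with 8.2% of all genes called. For RNR2A it was -0.14 (95% interval -0.35 to 0.07).

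Because the subunits fell to different degrees, their ratios were taken library by library from FPKM. The ratio of TSO2 to RNR2A was 1.65 ± 0.0758 in Col mock (SD, n = 3), 2.18 ± 0.0830 in X, 2.09 ± 0.0892 in W, 4.50 ± 0.606 in XW and 5.56 ± 0.631 in tsk. Under MMS it was 2.72 ± 0.152, 3.14 ± 0.524, 3.26 ± 0.237, 7.93 ± 0.647 and 4.99 ± 0.509 in the same order. TSO2 thus made up 62.2% of the summed FPKM of TSO2 and RNR2A, which leaves out RNR2B, in Col mock and 73.1% under MMS. The levels of these ratios and shares depend on the lengths behind the FPKM, which do not match the annotation, so only groups are compared. In tsk its share was 84.7% without MMS and 83.2% with it, and in XW it went from 81.7% to 88.8%.

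Over all genotypes MMS raised the log2 ratio of TSO2 to RNR2A by 0.51 (two-sided exact permutation of treatment within genotype, 3200000 regroupings, adjusted over 3 ratios p = 0.00010). In Col, X, W and XW every MMS library lay above every mock library, and in tsk the treatments overlapped with a difference of -0.16. The ratio of TSO2 to RNR1 rose by 0.30 in the same exact permutation test (adjusted p = 0.00010), again without overlap in 4 genotypes and with overlap in tsk (-0.10). RNR2A to RNR1 fell by 0.21 in this exact permutation test (adjusted p = 0.0025). It fell without overlap in Col (-0.43) and XW (-0.57), and the libraries overlapped in X (-0.08), W (-0.04) and tsk (0.05). Within 1 genotype an exact test of 3 against 3 libraries cannot go below p = 0.10, so no genotype was tested alone.

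TSO2 and RNR2A summed, again without RNR2B, stood to RNR1 at 0.915 ± 0.0232 in Col mock, 0.883 ± 0.0179 in X and 0.926 ± 0.0660 in W. In XW they stood at 1.51 ± 0.0459 and in tsk at 1.45 ± 0.0501. These ratios depend on the lengths behind the FPKM, which do not match the annotation. They compare groups and do not say which kind of subunit had more transcripts. Under MMS the ratio was 0.958 ± 0.0557 in Col, 1.08 ± 0.0349 in X, 1.24 ± 0.0911 in W, 1.66 ± 0.0516 in XW and 1.38 ± 0.0992 in tsk.

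**Figure D3:**
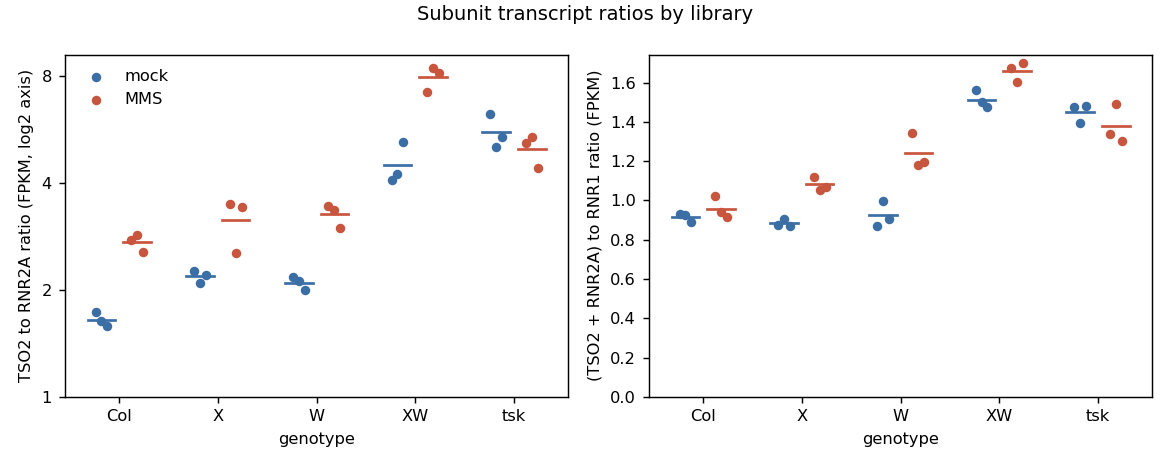
Ratio of TSO2 to RNR2A (left, log2 axis) and of TSO2 plus RNR2A to RNR1 (right, axis from 0) in FPKM for each library by genotype, mock in blue and MMS in red, with bars at the mean. The first ratio is 1.58 to 1.73 in Col mock and 7.20 to 8.43 in XW under MMS, and in tsk the treatments overlap. The levels depend on the lengths behind the FPKM, which do not match the annotation, so only groups are compared.

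The other genes of dNTP supply showed no common direction. Of 22 such genes, 21 were tested, and in mock seedlings 1 was higher and 1 lower than Col in X, 4 and 3 in W, 2 and 6 in XW, and 1 and 4 in tsk. Over all genes the called shares were the 7.48%, 13.1%, 25.3% and 26% given above, so the 5 of 21 called in tsk are near the background. Their median log2 change was -0.06 in XW and -0.04 in tsk, beside -0.02 and -0.04 over all tested genes. TK1a, a thymidine kinase that salvages thymidine, was higher in all 4 mutants. It stood at 221 ± 32.7 normalized counts in Col mock, 622 ± 139 in XW (log2 fold change 1.47, limma adjusted p = 4.7e-11) and 749 ± 53.1 in tsk (1.76, limma adjusted p = 1.3e-12). X and W differed less, by 0.49 and 0.38. CDA1, a cytidine deaminase, rose in XW (0.42). W alone of the 4 had PYR6, a UMP kinase gene (0.33), and the nucleoside diphosphate kinase genes NDPK1 (0.21) and NDPK3 (0.30) called higher.

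The lower calls in mock seedlings were spread over 6 genes. AT1G30820, a CTP synthase gene, fell in all 4 mutants (-0.46 in X, -0.64 in W, -0.41 in XW and -1.07 in tsk). AT4G02120, of the same family, fell in W (-0.19), XW (-0.18) and tsk (-0.24), and emb2742, also of it, in XW (-0.51). ZEU1, a thymidylate kinase gene, fell in W (-0.24), XW (-0.32) and tsk (-0.34). dNK, a deoxynucleoside kinase gene, fell in XW (-0.38) and tsk (-0.28), and THY-1, which makes thymidylate, in XW (-0.25).

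**Figure D4:**
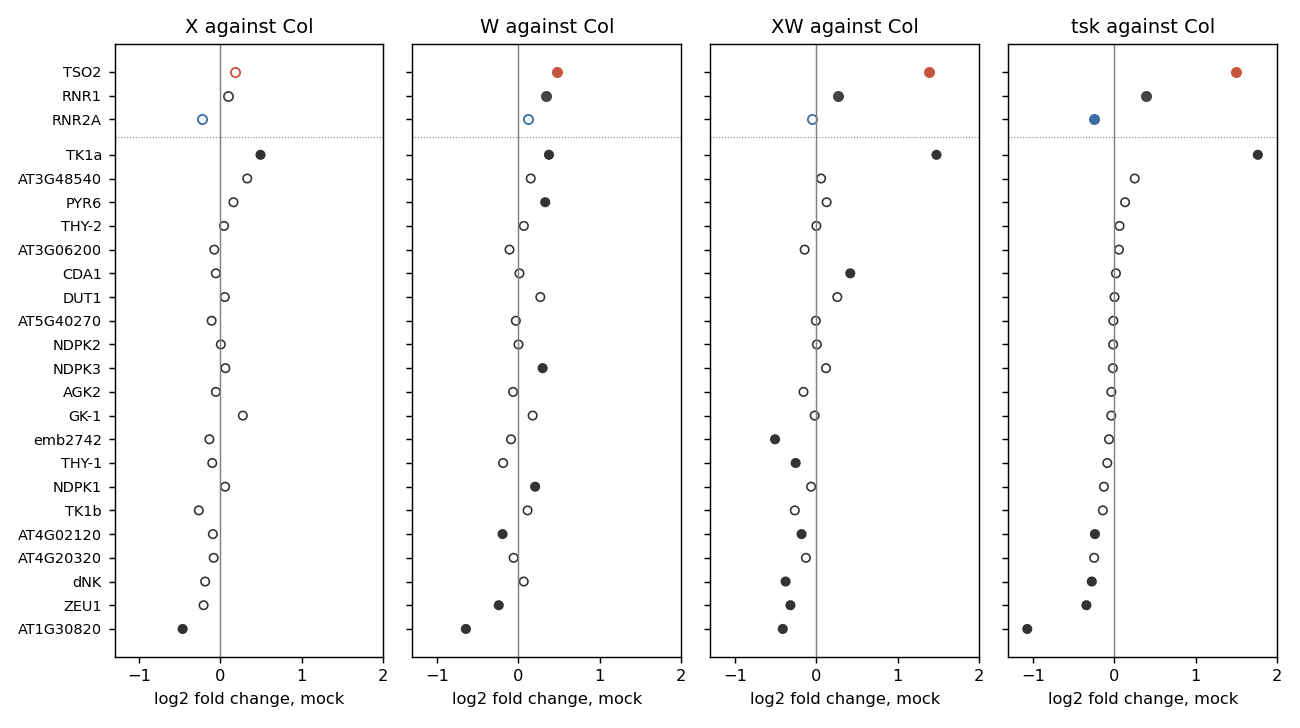
Log2 fold change against Col without MMS (horizontal axes) of the 3 reductase genes (above the dotted line) and 21 other genes of dNTP supply, in X, W, XW and tsk. Filled points were called. TSO2 (1.38 and 1.5) and TK1a (1.47 and 1.76) stand to the right in XW and tsk, and most other genes lie near 0.

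MMS in Col raised 7 and lowered 9 of the 21 genes, where 71.1% of all genes were called, with a median of -0.12 beside 0.01 over all genes. DUT1, the dUTP pyrophosphatase that keeps uracil out of DNA, fell most (-1.94), and AT3G48540, a deoxycytidylate deaminase family gene, fell by 1.29 on the log2 scale. NDPK1 (-0.74), NDPK2 (-0.60), NDPK3 (-0.94), AT4G20320 (-0.91), dNK (-0.42), THY-1 (-0.35) and AT4G02120 (-0.23) fell too. GK-1 (1.11) and AGK2 (1.03), guanylate kinase genes, rose, as did TK1a (0.73), ZEU1 (0.66), AT5G40270 (0.49), AT1G30820 (0.32) and emb2742 (0.23). AT5G40270 encodes an HD domain phosphohydrolase. TK1a was not called between MMS and mock in tsk (-0.25, limma adjusted p = 0.0502), and its response there differed from that in Col by -0.98 (limma adjusted p = 0.0011).

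Against Col under MMS, 5 of the 21 genes were higher and 4 lower in XW, 2 and 4 in tsk, 1 and 1 in X, and 0 and 2 in W, beside 25.3%, 30.3%, 11% and 11.7% of all genes called. Higher in XW were TK1a (1.19), DUT1 (0.94), CDA1 (0.68), NDPK3 (0.33) and PYR6 (0.21). In tsk these were TK1a (0.78) and CDA1 (0.34), and in X TK1a (0.39). dNK was lower in all 4 mutants (-0.25 in X, -0.22 in W, -0.27 in XW and -0.19 in tsk). AT4G20320 (-0.35 and -0.57) and AT1G30820 (-0.32 and -0.50) were lower in XW and tsk, ZEU1 in XW (-0.24), NDPK1 in tsk (-0.36) and emb2742 in W (-0.31).

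Electrons for the reductase come from thioredoxins and glutaredoxins. Of 9 genes of these systems 1 was called in mock seedlings of any mutant, the glutaredoxin gene GRXC2, which was higher in tsk (0.38). Over all genes 7.48%, 13.1%, 25.3% and 26% were called in X, W, XW and tsk. Under MMS the thioredoxin gene TRX5 was higher than in Col in X (0.54), W (0.66) and XW (0.80), GRXC2 in X (0.48) and XW (0.30), and NTRB, a thioredoxin reductase gene, in XW (0.27). In tsk under MMS the thioredoxin gene TRX2 was higher (0.29) and the glutathione reductase gene GR1 lower (-0.35). Of the 9 genes 2 were thus higher under MMS in X, 1 in W, 3 in XW and 1 in tsk, with 1 lower in tsk. The shares of all genes called in these groups were 11%, 11.7%, 25.3% and 30.3%. Of the regulators that the damage response works through, SOG1 was not called in any mutant against Col, with changes from -0.19 to 0.05, and MMS raised it in Col by 0.25. ATM, a kinase of the break response, was lower in XW without MMS (-0.40) and, under MMS, in XW (-0.26) and tsk (-0.27). ATR was not called in any mutant. Among 9 genes of E2F, DP and RBR factors 2 were higher in W, 2 in XW and 1 in tsk without MMS, and none lower, which in XW and tsk is no more than the background of 25.3% and 26%. These were E2FA (0.31) and RBR1 (0.25) in W, RBR1 (0.22) and DEL3 (0.59) in XW, and E2FC (0.56) in tsk. Under MMS 5 were higher in XW, among them DEL3 (1.07), RBR1 (0.32), E2FA (0.47) and E2FC (0.42). DEL3 (0.77), E2FC (0.48) and E2FA (0.29) were higher in tsk and DEL3 (0.61) in W, beside the 25.3%, 30.3% and 11.7% of all genes called.

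S phase genes give the background for the fall under MMS. All 19 on the list, which hold replication factors and the H3 genes of replication, fell under MMS in Col, X, W and tsk, and 18 of 19 in XW, beside 7221 of 20256 tested genes called lower in Col. Their median change was -1.15 in Col, -1.21 in X, -1.33 in W, -0.65 in XW and -0.88 in tsk, beside 0.01 over all genes in Col. The histone H3 genes HTR13 (-2.18), HTR9 (-1.89) and HTR2 (-1.81) and the replication helicase gene MCM7 (-1.33) were among those that fell in Col. The changes of TSO2 and RNR1 lay above that median in every genotype. RNR2A lay above it in Col, X, W and tsk and below it in XW (-0.83). Under MMS 18 of 19 S phase genes were higher in XW than in Col (median 0.67), 10 in tsk (median 0.30), 7 in W (median 0.20) and 2 in X (median 0.07). Over all genes 25.3%, 30.3%, 11.7% and 11% were called there in either direction. The response of XW minus that of Col was higher for 14 of the S phase genes, beside 8.92% of all genes called. In mock seedlings 6 of the S phase genes were higher in W (median 0.25), 4 in XW (median 0.17), 2 in tsk (median -0.05) and none in X. The shares over all genes were 13.1%, 25.3%, 26% and 7.48%. The counts in XW and tsk mock, and in X under MMS, are thus near or below the background.

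Markers of tissues moved with MMS as well. All 8 leaf markers fell under MMS in every genotype, with a median of -1.31 in Col, beside 7221 of 20256 genes called lower in Col. Of 10 root markers 7 fell and 2 rose in Col, and 3 of 4 meristem markers fell. Summed leaf markers went from 20020 to 21700 FPKM in Col mock to between 11253 and 12133 under MMS. Meristem markers went from 89.3 to 94.4 FPKM down to between 54.4 and 60.4. Their part in the changes of the reductase genes was not tested. The meristem sum is mostly CLV1, at 41.1 to 84.9 FPKM over all libraries. In mock it was 68.7 to 79.1 FPKM in W, 77.1 to 87.5 in XW and 77.6 to 83.8 in tsk, below Col, and overlapped with Col in X. Of the 4 meristem markers 1 was lower in W, 1 in XW, and in tsk 1 was lower and 1 higher. Over all genes 13.1%, 25.3% and 26% were called in these comparisons, so 1 of 4 in XW is near the background.

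**Figure D5:**
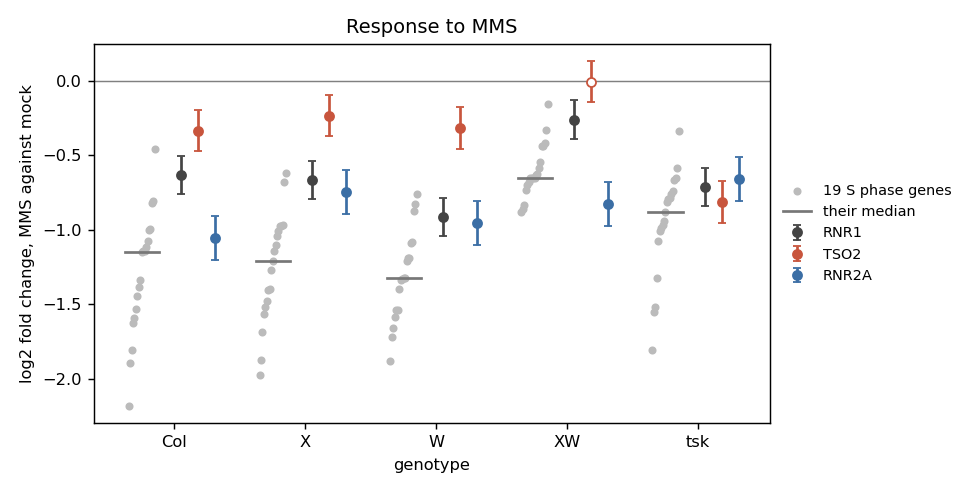
Log2 change from mock to MMS (vertical axis) of the 3 reductase genes with 95% intervals and of 19 S phase genes (grey, with a bar at the median) in each genotype. TSO2 lies above the S phase median in every genotype and at -0.01 in XW (open point, not called).

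Most damage response genes were higher in W, XW and tsk. Of 19 tested, 3 were higher in X, 12 in W, 14 in XW and 16 in tsk without MMS, and none was lower, with medians of 0.21, 0.51, 1.2 and 1.41, beside 7.48%, 13.1%, 25.3% and 26% of all genes called in either direction. XRI1 (2.01), the recombination gene GMI1 (2.09), the checkpoint gene RAD17 (1.66) and NAC044 (3.23), a transcription factor gene of the damage checkpoint, had the smallest p-values in tsk. Under MMS in Col 8 of the 19 were higher and 6 lower than in mock (median 0.13), near the 71.1% of all genes called there. XRI1 (0.95), GMI1 (1.01) and BRCA1 (1.10) rose where TSO2 fell, while BARD1 (-1.33) was among the 6 that fell, as TSO2 did. In tsk 2 rose and 8 fell under MMS, beside 71.1% of all genes called. Many of the damage response genes were listed because they are known to follow SOG1, and the list was written with earlier results of these data known.

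The genes whose levels were most like those of each member were found from Pearson correlations of log2 levels, taken over the 15 mock and the 15 MMS libraries apart, and ranked by the smaller of the 2. Libraries of a genotype share its effect, so these describe the series and carry no test. Among the genes closest to TSO2 were PARP2, a poly(ADP-ribose) polymerase gene (0.97 in mock and 0.98 under MMS), the F-box gene AT5G07610 (0.95 and 0.95), NAC044 (0.95 and 0.97) and the helicase gene AT2G47680 (0.98 and 0.94). PARP2 rose from 171 normalized counts in Col mock to 523 in XW and 483 in tsk. AT5G07610 was near the floor in mock libraries of Col (1.39 normalized counts), X (6.53) and W (5.63), against 108 in XW and 82.5 in tsk. Its correlations thus rest mostly on XW and tsk standing apart. RNR1 was closest to NAC044 (0.88 and 0.94), AT4G02110 (0.85 and 0.85), NAC103 (0.85 and 0.87), AT4G19130, a gene like the large subunit of replication protein A (0.85 and 0.88), and ERD3 (0.82 and 0.87). For RNR2A the closest genes reached lower values, with PAP18, an acid phosphatase gene, at 0.72 and 0.71, and then PSK2, AT4G37850, UGT76E2 and PPa6.

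Among the members RNR1 and TSO2 had a correlation of 0.74 over mock and 0.96 over MMS libraries. A single gene exceeded TSO2 in its likeness to RNR1 under MMS, and 172 did in mock. RNR1 and RNR2A had 0.00 and 0.27, and TSO2 and RNR2A had -0.31 and 0.38. Over all 30 libraries RNR1 and RNR2A reached 0.82, where the common fall under MMS enters, and TSO2 and RNR2A reached 0.25.

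The longest run shared exactly by the transcripts of TSO2 and RNR2A is 13 bases, while reads were 150 nt long. Their coding sequences are 67.9% identical over aligned bases. TSO2 and RNR2B share a run of 23 bases at 82.5% identity over aligned bases. For RNR2B the 1000 bases of the whole transcript were aligned, so this value is not a comparison of 2 coding sequences. RNR2A shares 153 exon bases (9.05% of its own) with AT3G23570 on the other strand, and how strand was used in counting is not given in the sources used here, so reads of this stretch cannot be told apart. AT3G23570 was not called in any mutant in mock, where RNR2A fell in tsk. It fell under MMS in Col from 796 ± 42.8 to 482 ± 14.3 normalized counts (-0.72), and under MMS it was higher than Col in X (0.42), W (0.46), XW (0.61) and tsk (0.45). TSO2 shares 3 exon bases with AT3G27050, and RNR1 shares none with any gene.

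The 10 tested genes on each side of each member were described in the same way. In tsk mock the median log2 change of these 20 neighbours was -0.03 around RNR1, -0.03 around TSO2 and 0.00 around RNR2A, beside -0.04 over all genes. Of the 20 neighbours in tsk mock, 4 were higher and 1 lower around RNR1, 0 and 3 around TSO2, and 2 and 7 around RNR2A. Over all genes 26% were called there in either direction. Around TSO2, whose log2 change was 1.5 in tsk, the neighbours ran from -0.63 to 0.92, and around RNR1 from -0.53 to 1.66. In XW mock the medians were 0.01, -0.05 and -0.05. Under MMS in Col, where all 3 members fell, the medians were -0.39 around RNR1 (5 higher and 10 lower), 0.02 around TSO2 (6 and 7) and -0.23 around RNR2A (7 and 10), beside 0.01 over all genes. In that comparison 71.1% of all genes were called.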

How the data were processed

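RNA of 30 libraries from Arabidopsis seedlings was sequenced as paired reads of 150 nt. Per the submitters' processing notes, reads were aligned with STAR to TAIR10 and normalised with DESeq2 1.30.1. The deposited signal holds the reads of each gene over 1 size factor of its library, here called normalized count. The authors' second table gives FPKM, scaled to gene length and to the total of the library. The counting tool, its use of strand and the authors' gene filter are not given in the sources used here. All 30 single-library files equal columns of the normalized table. Divided by the smallest value in its column, 100% of the entries came within 0.01 of a whole number, and these were taken as reads.

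The main test was limma 3.58.1 in R 4.3.3 with a trend on log2(normalized count + 1). A fold change on this scale understates the change of low genes. The plan named edgeR's quasi-likelihood test for whole counts and this limma fit should no file hold them. A single model of all 30 libraries had a coefficient for each of 10 groups and 20 residual degrees of freedom. Genes with at least 10 normalized counts in at least 3 libraries were tested, which left 20256 and removed 148. Within each comparison the Benjamini-Hochberg adjustment covered all tested genes. Alternatives were DESeq2 1.42.0 and edgeR 4.0.16 (RLE and, added later, TMM scaling) on recovered reads, no filter, a pseudocount of 10, FPKM + 1, the compared groups alone, the replicate number as a block, and leaving out each library. On recovered reads edgeR with TMM scaling called 5460 genes in tsk against Col without MMS, beside 5257 in the main test. The procedure was tested on simulated data.

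Depth was 15343687 to 25115027 reads per library, with 930 to 2205 reads of RNR1, 1012 to 4794 of TSO2 and 331 to 1072 of RNR2A. Named genes are the 3 members, the 5 genes most like each (1 of them is not reported here), up to 4 called genes with the smallest adjusted p of each list in the comparison described, all called genes of dNTP supply, and the genes named by the genotypes. AT3G23570 and AT3G27050 were named after their overlap with a member was found, and SOG1, ATR, CLV3 and WUS, not called in any mutant or not in the tables, after their values were seen. The members and lists were chosen with earlier results of these data known. Sequences, positions and gene names come from the TAIR10.1 annotation of RefSeq, matched by locus for all 3 members.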

Additional observations from a re-analysis of the deposited data

Results flagged for a closer look

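These results are listed because a test of the difference itself separated genotypes. Each is a limma interaction term on the log2 scale, with values and single-library checks given above. The MMS response of XW differed from that of Col by 0.33 for TSO2 and 0.37 for RNR1. That of tsk differed from Col by -0.48 for TSO2 and 0.40 for RNR2A, so the small subunit genes lay on opposite sides in the same libraries. The response of XW minus that of tsk was 0.81 for TSO2 and 0.45 for RNR1. The non-additive part of XW was 0.74 for TSO2 without MMS, and 0.95 for TSO2 and 0.53 for RNR1 under MMS. HTA5 in the libraries labelled XW was near its level in Col, so what these terms say of the double mutant rests on the label.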

How the results depend on the processing

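No fold change of a called result changed sign under any alternative, no call moved without the filter, and the 3 ratios kept their side of the threshold. RNR2A in X against Col, mock, was called with DESeq2 (-0.23), edgeR with TMM (-0.24) or RLE (-0.23) scaling, a pseudocount of 10 (-0.23) and the compared groups alone (-0.23). RNR2A in W against Col under MMS was lost with DESeq2 (0.23), edgeR TMM (0.22), FPKM (0.17) and the compared groups alone (0.23). The W minus Col response of RNR1 was called with DESeq2 (-0.29), a pseudocount of 10 (-0.28), FPKM (-0.34) and the replicate block (-0.28). TMM also called RNR1 in XW against X, mock (0.19). FPKM lost RNR2A in tsk against Col (-0.16) and XW against tsk (0.11) in mock and the XW minus Col response of TSO2 (0.30). It called RNR2A in tsk against Col under MMS (0.20), and RNR1 (-0.19) and TSO2 (-0.18) in XW against tsk, mock. With the compared groups alone TSO2 in X against Col, mock, was called (0.18), and the XW minus Col response of TSO2 (0.33) and RNR2A in XW against tsk, mock (0.19), were lost. The cause was not tested.

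Replicate numbers did not pair the libraries (median correlation of deviations 0.00 over 135 same-numbered pairs, 1 above 0.1), and the replicate block otherwise lost RNR2A in XW against tsk, mock (0.19). Leaving out 1 library gave -0.28 to -0.19 for RNR2A in tsk against Col, mock, -0.36 to -0.24 for the W minus Col response of RNR1, and 0.27 to 0.38 for the XW minus Col response of TSO2. It gave 0.34 to 0.43 for the tsk minus Col response of RNR2A, 0.11 to 0.23 for RNR1 in XW against X, mock, and -0.23 to -0.13 for RNR2A in XW against W, mock. The others were 0.14 to 0.25 for RNR2A in XW against tsk, mock, 0.23 to 0.33 for TSO2 in X against Col under MMS, and 0.20 to 0.26 for RNR2A in W against Col under MMS.

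Counts of called genes moved by over 1.5 times with the compared groups alone in 9 comparisons. In mock these were X against Col (3177 beside 1516), XW against Col (3038 beside 5119), XW against tsk (3979 beside 6021), XW against X (1436 beside 2896) and XW against W (1867 beside 4445). The others were W against Col under MMS (1429 beside 2365) and the responses X minus Col (823 beside 403), XW minus Col (1197 beside 1806) and XW minus tsk (1245 beside 1918). Leaving out 1 library gave, for X against Col, mock, 779 and 962 without Col mock replicate 1 and 2, and 941, 941 and 780 without X mock replicate 1, 2 and 3. W against Col, mock, gave 1740 (beside 2661) without Col mock replicate 1. XW against X, mock, gave 1830, 1826 and 1783 without X mock replicate 1 or 3 or XW mock replicate 1, and the non-additive part in mock gave 1403 (beside 2133) without X mock replicate 3. Under MMS, X against Col gave 1440, 1309 and 1283 (beside 2220) without Col replicate 1 or 3 or X replicate 3. XW against W gave 1386 and 1570 (beside 2454) without W replicate 1 or XW replicate 2, and the non-additive part gave 1097 (beside 1661) without W replicate 1. The X minus Col response gave 215 to 256 without Col mock replicate 2 or 3, X mock replicate 3 or X MMS replicate 2 or 3. The tsk minus Col response gave 311 to 336 (beside 505) without Col mock replicate 2, tsk mock replicate 3, Col MMS replicate 2 or tsk MMS replicate 1.

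FPKM moved the split of higher/lower calls by over 10 percentage points (main test in brackets). It gave 3196/1446 (2199/3058) in tsk against Col, mock, 3583/2168 (2584/3544) under MMS, 2400/4018 (3403/2618) in XW against tsk, mock, and 2105/3730 (3323/2370) under MMS. Further splits were 1529/1141 (1226/1435) in W against Col, mock, and under MMS 970/1439 (1309/911) in X against Col, 1211/1348 (1569/796) in W against Col, 1824/1156 (1513/1655) in XW against X, 1362/952 (1088/1366) in XW against W and 1122/664 (631/1030) for the non-additive part. The responses gave 147/294 (219/184) for X minus Col and 611/885 (891/530) for W minus Col. TMM, chosen after seeing the data, gave 368/172 (277/228) for the tsk minus Col response and 683/1325 (852/1066) for XW minus tsk.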
